A study of Mus musculus with 6 samples.

Results

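Described here are 49 genes of DNA replication and S phase, among 32564 genes summed from transcripts in 6 RNA-seq libraries of mouse brain cells. They were taken as a fixed list of symbols drawn up by function, with earlier results of these data known. Their transcripts were found by identifier, and estimated counts and TPM (a level per transcript length on a scale shared by all libraries) were summed per gene in every library. The antagomir group was 3 libraries of cells from gfap:GFP transgenic mice that had received a miR-204-specific antagomir, a chemically modified strand made to pair with a microRNA and block it, by intraventricular injection. The vehicle group was 3 libraries from gfap:GFP mice injected with aCSF, artificial cerebrospinal fluid. In both groups the strain is given as C56BL/6J, the mice were 3 months old, and cells were collected from the subependymal zone, the stem cell niche along the lateral ventricle, 3 days after injection. The cells are labelled qNSCs, quiescent neural stem cells, and were isolated by fluorescence-activated sorting from animals carrying GFP under the gfap promoter, a promoter that parenchymal astrocytes also use. No control oligonucleotide is given, so the presence of any oligonucleotide and the block of miR-204 cannot be told apart. Whether a replicate is 1 animal, a pool or a repeat of the same material is not given either, and p-values therefore measure only the spread among these libraries, which may be technical.

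Before S phase, the origin recognition complex, Cdc6 and Cdt1 load the ring-shaped MCM helicase onto replication origins, a step called licensing. At the start of S phase, the Cdc7-Dbf4 kinase and cyclin-dependent kinases recruit Cdc45 and the GINS complex to the MCM ring, and primase, the replicative polymerases, the sliding clamp PCNA and its loader RFC then copy the DNA. Many of these genes are transcribed at the passage from G1 to S under E2F factors. Quiescent stem cells of the adult niche are out of the cycle, and replication genes mark the activated stem cells and progenitors that descend from them.

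Library totals ran from 14866453 to 19694409 estimated counts, and a count of 3 corresponded to 0.152 to 0.201 CPM, a count scaled to a common library size with edgeR's TMM factors. The 12 quiescent stem cell and astrocyte markers were abundant in every library, with summed levels of 13291 to 17196 CPM in antagomir libraries and 17336 to 18721 CPM in vehicle libraries. Of these 12, 11 had negative fold changes (log2, antagomir over vehicle), with a median of -0.22. For 3 of them the antagomir values all lay below the vehicle values, where 5.45% of all genes tested were so separated. An unadjusted p under 0.05 (edgeR) with lower antagomir values was found for 2, where 1.93% of all genes had it, but none passed adjustment. Gfap itself was at 237, 180 and 294 CPM in antagomir libraries, against 556, 365 and 189 CPM in vehicle libraries. Markers of other cells were present as well: oligodendrocyte markers summed to 14872 to 21045 CPM in antagomir libraries and 9242 to 19313 CPM in vehicle libraries. Vehicle replicate 1 stood apart in microglia and macrophage markers: all 12 were highest in it, with a sum of 2447 CPM. That sum was 183 to 396 CPM in the antagomir libraries and 370 and 241 CPM in the other vehicle libraries. Antagomir replicate 1 stood apart in neuroblast markers, with a sum of 2337 CPM, against 613 to 1488 CPM in the other libraries. Values without vehicle replicate 1 are therefore given below for the list and its role groups. They are also given for genes of the naming rule stated with the processing whose fold change that library moves by over 1.5 times. Some genes outside that rule are given without it as well. Leaving out this vehicle library, which was high for most replication genes, raised their median fold change. The list and some genes are therefore also given without antagomir replicate 1.

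All 49 replication genes were detected in every library, with a lowest count of 5, for Orc1, and all passed the filter on low counts. None of them passed edgeR's quasi-likelihood test, in which 0% of 15012 genes reached an adjusted p under 0.05, and the smallest adjusted p of a replication gene was 0.949. Before adjustment, 3 of the 49 had p under 0.05, where 4.11% of all genes tested did. All 3 had higher antagomir values, where 2.18% of all genes passed in that direction. None of the 49 had p under 0.05 in the lower direction, where 1.93% of all genes did. DESeq2, limma-voom and limma-trend also called none of the 49. Fold changes are log2, antagomir over vehicle, and 45 of the 49 were positive, where 49.1% of all genes tested were. Their median was 0.31, with quartiles of 0.17 and 0.53, while the median of all genes tested was -0.0062, with quartiles of -0.22 and 0.20. Cdc6 (-0.30), Gins3 (-0.12), Orc6 (-0.03) and Rfc4 (-0.02) had the negative values. The plot of fold changes shows each estimate with its standard error, which was often of a similar size.

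**Figure D1:**
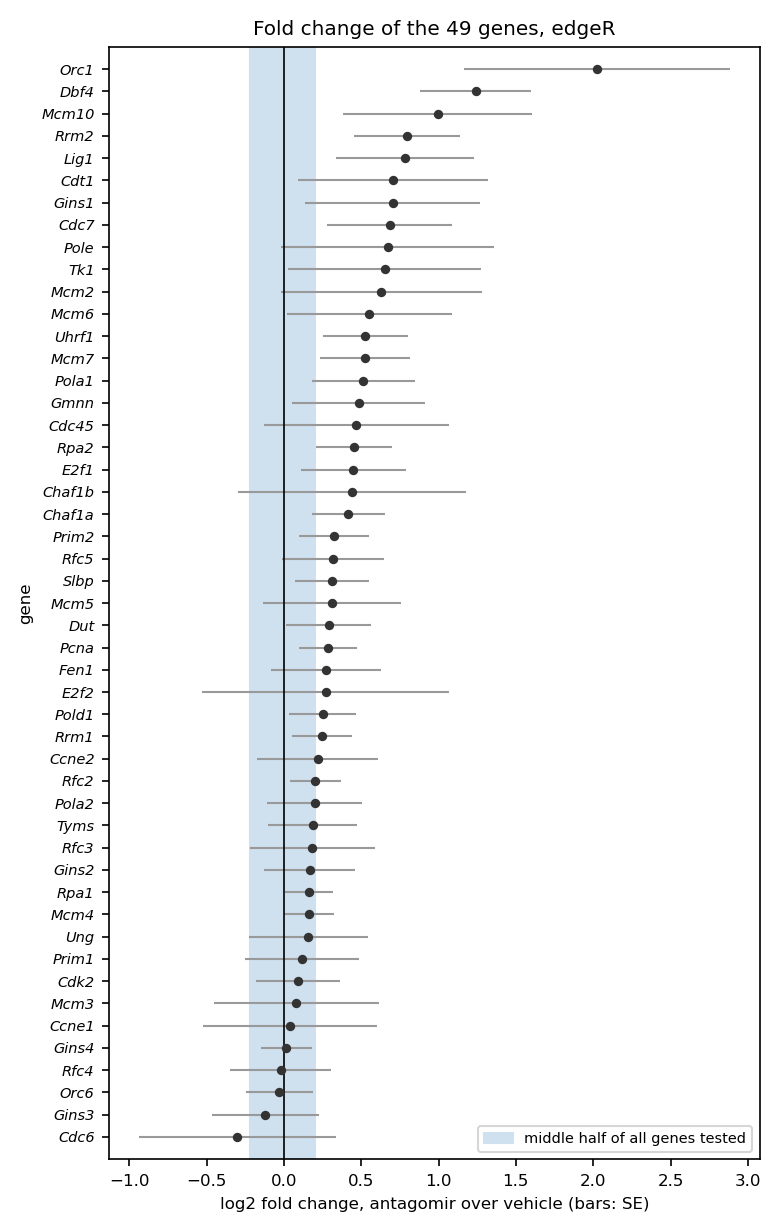
Log2 fold change of each of the 49 genes, antagomir over vehicle, from edgeR; points are the estimates, bars their standard errors, and the shaded band holds the central 50% of all genes tested (-0.22 to 0.20). Points to the right of 0 are higher in antagomir libraries, 45 of the 49 lie there, and no gene passed the adjusted threshold.

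The libraries did not divide by treatment. Summed over the 49 genes, the levels were 1687, 1406 and 1344 CPM in antagomir libraries, against 1518, 985 and 1018 CPM in vehicle libraries. Vehicle replicate 1 lay among the antagomir libraries, and the other vehicle libraries lay below all of them. A score per library, the median over the 49 genes of each gene's log2 CPM centred on its mean over all 6, gave the same order: 0.49, 0.16 and 0.03 in antagomir libraries, against 0.26, -0.48 and -0.34 in vehicle libraries. The mean score was 0.41 higher in antagomir libraries, with SDs of 0.24 in antagomir and 0.39 in vehicle libraries (n = 3 each), so the groups overlapped. In these bulk libraries, more cells in S phase and more replication mRNA per cell cannot be told apart.

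Vehicle replicate 1 was the highest vehicle library for 40 of the 49 genes (81.6%, against 37.1% of all genes tested). Vehicle replicate 2 or 3 was the lowest of all 6 libraries for 39 of the 49 (79.6%, against 34.0% of all genes). The antagomir and vehicle values did not overlap for 2 genes, Dbf4 and Prim2, both higher in antagomir libraries, where 5.07% of all genes tested were separated in that direction. For none of the 49 were they separated in the lower direction, where 5.45% of all genes were. Without vehicle replicate 1, 30 of the 49 were separated with higher antagomir values, where 14.1% of all genes were, and none with lower ones, where 12.9% were. In that fit 22 of the 49 had an unadjusted p under 0.05 with higher antagomir values, where 5.35% of all genes did, and none with lower ones, where 2.02% did. The median fold change was 0.62 and 47 were positive, but the smallest adjusted p among them was 0.270 with edgeR, so still none was called. That leave-one-out comparison was among the alternatives planned, and the count of separated genes was added after seeing the data. The quiescent stem cell and astrocyte markers, whose median fold change was -0.22, stayed at -0.22 without vehicle replicate 1. Without antagomir replicate 1 instead, the median fold change of the 49 genes was 0.25 and 38 were positive. In that fit 2 had an unadjusted p under 0.05 (edgeR) with higher antagomir values, where 1.82% of all genes did. The part that microglia, or any other cell type, had in these differences was not tested.

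**Figure D2:**
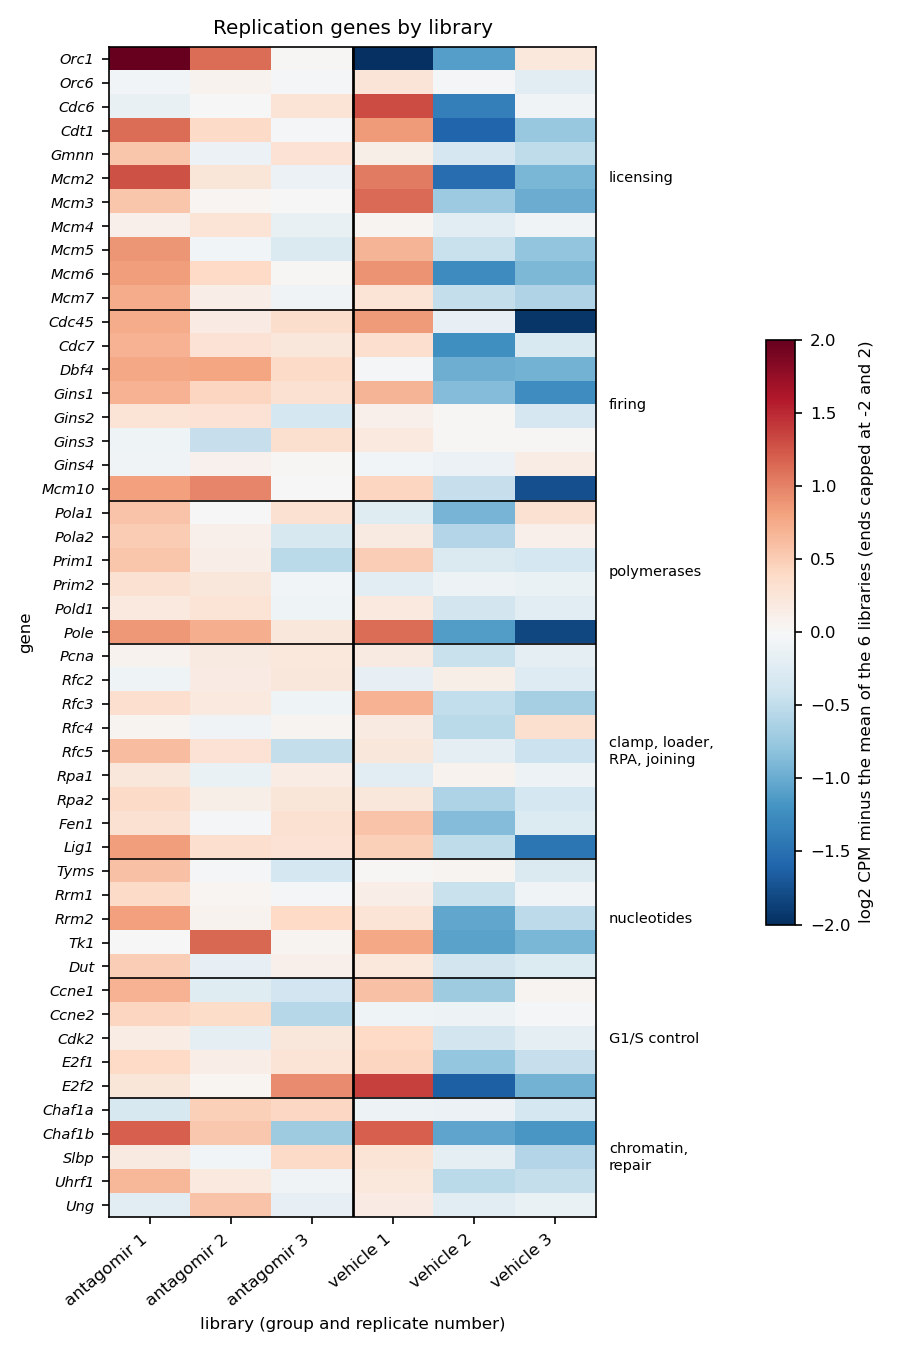
Log2 CPM of each of the 49 genes, centred on the gene's mean over all 6 libraries, with genes grouped by role down the page and libraries across it, antagomir libraries on the left and vehicle libraries on the right; the colour scale is capped at -2 and 2. Vehicle replicates 2 and 3 carry the low values, and vehicle replicate 1 looks like the antagomir libraries for most genes.

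Origin licensing was represented by 11 genes, of which 9 had positive fold changes, with a median of 0.48. Orc1, the large subunit of the origin recognition complex (ENSMUSG00000028587.18, GRCm38 chromosome 4, 108579423 to 108614833), was the weakest and most variable of them. It had 6.20, 3.14 and 1.47 CPM in antagomir libraries, against 0.281, 0.672 and 1.67 CPM in vehicle libraries. Its fold change was 2.03 ± 0.86 (SE; unadjusted p = 0.0456, edgeR adjusted p = 0.949), and the highest vehicle library lay above the lowest antagomir library. Vehicle replicate 1, high for most of the 49 genes, was the lowest library for Orc1. The unadjusted p of Orc1 was 0.0333 without antagomir replicate 3 and 0.0182 without vehicle replicate 3 (edgeR). It ran from 0.0754 to 0.193 when any other library was left out (edgeR).

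Cdt1, the loading factor that is destroyed once S phase begins (ENSMUSG00000006585.3, chromosome 8, 122568015 to 122573554), had 21.1, 12.7 and 9.58 CPM in antagomir libraries, against 17.6, 3.24 and 5.78 CPM in vehicle libraries. Its group means were 14.5 ± 5.99 CPM in antagomir libraries and 8.87 ± 7.66 CPM in vehicle libraries (SD, n = 3 each), a fold change of 0.71 ± 0.61 (SE; unadjusted p = 0.281, edgeR adjusted p = 0.949). The groups overlapped through vehicle replicate 1. Gmnn, geminin, the inhibitor that binds Cdt1 after licensing, had 7.05, 4.41 and 5.89 CPM in antagomir libraries and 5.23, 3.79 and 3.40 CPM in vehicle libraries. Its groups overlapped too, and its fold change of 0.48 ± 0.43 was close to its standard error. Without vehicle replicate 1 the median of the 11 genes was 0.89 and the fold change of Cdt1 was 1.69 (unadjusted p = 0.00799, edgeR adjusted p = 0.514).

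The 6 subunits of the MCM helicase ring varied unequally, although they act in equal number. Mcm2 (ENSMUSG00000002870.8, chromosome 6, 88883474 to 88898780) had 62.7, 30.6 and 23.7 CPM in antagomir libraries, against 52.9, 8.98 and 13.6 CPM in vehicle libraries. Mcm6 (chromosome 1, 128331590 to 128359664) had 61.3, 44.9 and 34.96 CPM in antagomir libraries, against 63.6, 14.4 and 18.3 CPM in vehicle libraries. In both genes vehicle replicate 1 was close to or above the highest antagomir library, and the other vehicle libraries were the lowest of all. Mcm4 (chromosome 16, 15623897 to 15637400) had 90.7, 103 and 77.0 CPM in antagomir libraries, against 88.2, 73.3 and 80.7 CPM in vehicle libraries, a ratio of 1.41 between its highest and lowest library. That ratio was 6.98 for Mcm2 and 4.43 for Mcm6. Mcm4, Mcm6 and the other members named outside the naming rule given with the processing were singled out after their values were seen.

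Mcm7 (ENSMUSG00000029730.16, chromosome 5, 138164583 to 138172422) had the most reads of the ring subunits after Mcm4, with 119, 78.6 and 68.2 CPM in antagomir libraries, against 86.4, 51.2 and 47.2 CPM in vehicle libraries. Its fold change was 0.52 ± 0.29 (SE; unadjusted p = 0.110, edgeR adjusted p = 0.949). Mcm5 had 47.3, 24.7 and 21.02 CPM in antagomir libraries, against 41.3, 18.9 and 14.9 CPM in vehicle libraries, a fold change of 0.31 ± 0.44. Without antagomir replicate 1, the fold change of Mcm5 became -0.13, so its direction rested on that library. Per length, Mcm2 stood at 0.737, 0.317 and 0.329 of the TPM of Mcm4 in antagomir libraries, against 0.641, 0.131 and 0.181 in vehicle libraries. The same ratio for Mcm6 was 0.889, 0.540 and 0.566 in antagomir libraries and 0.880, 0.236 and 0.283 in vehicle libraries. Within each group both ratios were highest in replicate 1. With all libraries, the fold changes were 0.63 ± 0.65 for Mcm2 and 0.55 ± 0.53 for Mcm6 (SE). Those of Mcm2 and Mcm6 without antagomir replicate 1 were 0.11 and 0.31. Fold changes without vehicle replicate 1 were 1.80 for Mcm2, 1.54 for Mcm6, 0.89 for Mcm5 and 0.86 for Mcm7. That of Cdc6 was then 0.62, a turn of direction.

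**Figure D3:**
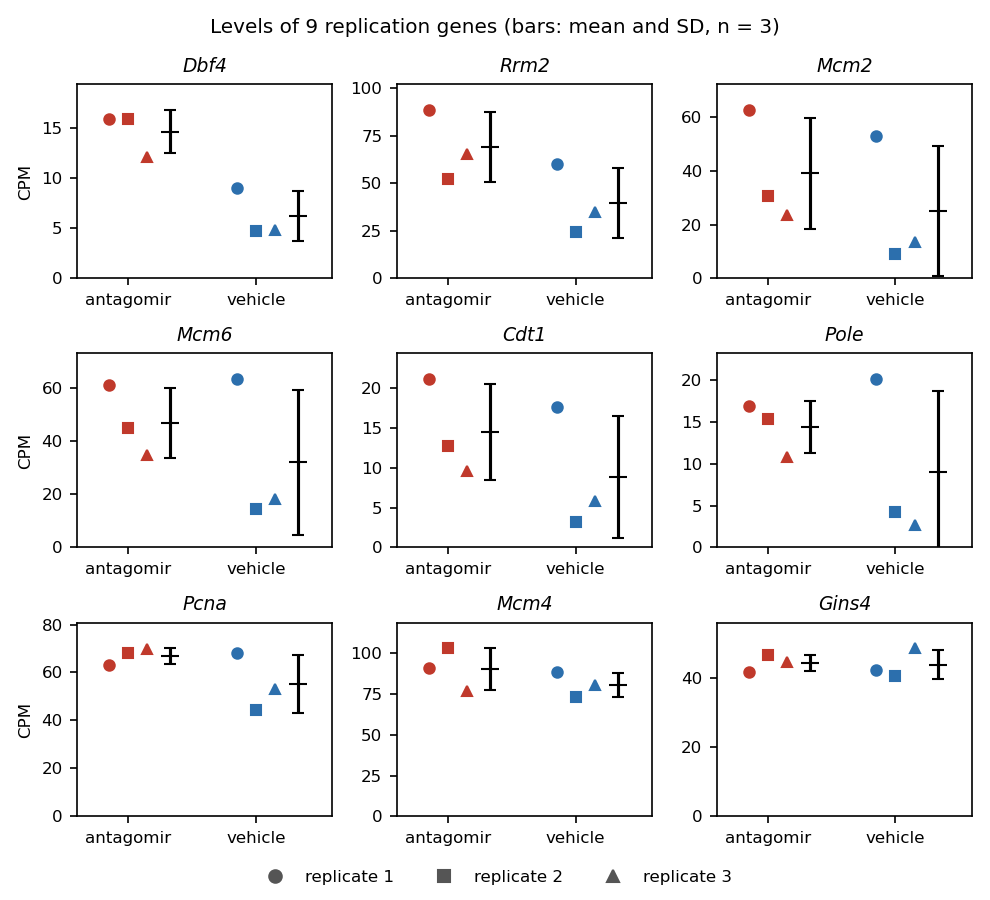
CPM of 9 genes in each library, antagomir libraries on the left of each panel and vehicle libraries on the right; the horizontal mark and bar beside each group give its mean and SD (n = 3), and a lower bar that would pass below 0 is cut there. Dbf4 is the gene shown whose groups do not overlap, Mcm2, Mcm6, Cdt1 and Pole have 1 high and 2 low vehicle libraries, and Mcm4 and Gins4 are nearly level.

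Origin firing and helicase assembly had 8 genes, of which 7 had positive fold changes, with a median of 0.58, the highest of the 7 role groups. Dbf4, the regulatory subunit that activates the kinase Cdc7 (ENSMUSG00000002297.16, chromosome 5, 8396973 to 8422716), had 15.9, 15.9 and 12.1 CPM in antagomir libraries, against 9.05, 4.70 and 4.82 CPM in vehicle libraries. Every antagomir library lay above every vehicle library, vehicle replicate 1 included. The group means were 14.6 ± 2.17 CPM in antagomir libraries and 6.19 ± 2.48 CPM in vehicle libraries (SD, n = 3 each), a fold change of 1.24 ± 0.36 (SE; unadjusted p = 0.0085, edgeR adjusted p = 0.949). An exact permutation test of 3 against 3 libraries cannot give a p under 0.1. Leaving out any 1 of the 6 libraries kept the unadjusted p of Dbf4 under 0.05, with fold changes of 1.08 to 1.63.

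Cdc7, the kinase itself (ENSMUSG00000029283.17, chromosome 5, 106964322 to 106984432), had 18.8, 14.2 and 13.7 CPM in antagomir libraries, against 14.6, 4.95 and 9.38 CPM in vehicle libraries. Mcm10, which helps the assembled helicase start to unwind DNA, had 7.60, 8.43 and 4.25 CPM in antagomir libraries, against 5.79, 3.12 and 1.27 CPM in vehicle libraries. In both, vehicle replicate 1 lay inside the antagomir range and the other vehicle libraries below it, and the fold changes were 0.69 ± 0.40 and 0.99 ± 0.61. Cdc45, a part of the active helicase, had 16.4, 10.97 and 12.5 CPM in antagomir libraries, against 17.6, 8.74 and 2.54 CPM in vehicle libraries. The 4 GINS subunits, which bind the helicase as a complex, did not vary alike. Gins1 had 7.72, 6.42 and 5.89 CPM in antagomir libraries, against 7.64, 2.63 and 2.03 CPM in vehicle libraries. Gins4 had 41.9, 46.7 and 44.8 CPM in antagomir libraries, against 42.4, 40.7 and 48.9 CPM in vehicle libraries, the narrowest range of all 49 genes (a ratio of 1.20). Gins2 and Gins3 ran between 5.55 and 15.4 CPM in the antagomir libraries and between 7.76 and 13.4 CPM in the vehicle libraries, with fold changes of 0.17 and -0.12. Cdc45 and Gins1 had fold changes of 0.47 ± 0.60 and 0.70 ± 0.57 (SE) with all libraries. With vehicle replicate 1 left out, the median of the 8 genes was 1.19. Fold changes were then 1.12 for Cdc7, 1.63 for Mcm10, 1.25 for Cdc45 and 1.53 for Gins1. That of Gins2 was then 0.26.

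All 6 polymerase and primase genes had positive fold changes, with a median of 0.29. Pola1, the catalytic subunit of the polymerase that extends primers (ENSMUSG00000006678.6, chromosome X, 93304767 to 93632155), had 30.9, 20.5 and 25.6 CPM in antagomir libraries, against 17.4, 10.8 and 25.7 CPM in vehicle libraries. Here the high vehicle library was replicate 3, which lay just above the second-highest antagomir value, and the fold change was 0.51 ± 0.33. Prim2, the large primase subunit (ENSMUSG00000026134.11, chromosome 1, 33453810 to 33669795), had 19.995, 19.1 and 15.6 CPM in antagomir libraries, against 13.8, 15.1 and 14.8 CPM in vehicle libraries. Its groups did not overlap, but the gap between the lowest antagomir and the highest vehicle library was small and the fold change was 0.32 ± 0.23 (SE; unadjusted p = 0.190, edgeR). Pold1, the catalytic subunit of the lagging-strand polymerase delta, had 39.0, 41.1 and 32.1 CPM in antagomir libraries, against 38.9, 26.3 and 29.0 CPM in vehicle libraries. Pole, the catalytic subunit of the leading-strand polymerase epsilon (chromosome 5, 110286306 to 110337474), had 16.8, 15.4 and 10.8 CPM in antagomir libraries, against 20.1, 4.28 and 2.64 CPM in vehicle libraries. The catalytic subunits thus had unlike spreads, with a ratio of highest to lowest library of 7.63 for Pole and 1.56 for Pold1. Pola2 and Prim1, the partners of Pola1 and Prim2, had fold changes of 0.20 and 0.12 with overlapping groups. Without vehicle replicate 1 the median of the 6 genes was 0.44, and the fold changes were 2.06 for Pole, against 0.67 with it, and 0.44 for Pold1, against 0.25 with it. Those of Pola2 and Prim1 were then 0.34 and 0.45, but -0.04 and -0.17 without antagomir replicate 1.

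Of the 9 genes of the clamp, clamp loader, single-strand binding protein and Okazaki fragment joining, 8 had positive fold changes, with a median of 0.27. Pcna, the sliding clamp (ENSMUSG00000027342.14, chromosome 2, 132249162 to 132253314), had 63.3, 68.1 and 69.6 CPM in antagomir libraries, against 68.2, 44.2 and 52.9 CPM in vehicle libraries. Its means were 67.0 ± 3.28 CPM in antagomir libraries and 55.1 ± 12.1 CPM in vehicle libraries (SD, n = 3 each), a fold change of 0.28 ± 0.19. The antagomir libraries were close to each other, and vehicle replicate 1 lay among them. Of its processed pseudogenes, Pcna-ps1 had 4 estimated counts over the 6 libraries and Pcna-ps2 had 0. Rpa2, a subunit of the single-strand binding protein RPA (ENSMUSG00000028884.14, chromosome 4, 132768332 to 132778752), had 40.1, 33.5 and 36.3 CPM in antagomir libraries, against 36.0, 20.2 and 24.3 CPM in vehicle libraries. Rpa1, the largest RPA subunit, ranged over 109 to 140.2 CPM in antagomir libraries and 104 to 125 CPM in vehicle libraries and was the gene of the 49 with the most reads. Lig1, the ligase that seals Okazaki fragments (ENSMUSG00000056394.17, chromosome 7, 13277283 to 13311433), had 33.5, 23.9 and 22.9 CPM in antagomir libraries, against 26.4, 13.3 and 6.95 CPM in vehicle libraries. Its fold change was 0.78 ± 0.45 (SE; unadjusted p = 0.116, edgeR), and the groups overlapped through vehicle replicate 1. Fen1, the nuclease that trims Okazaki fragments, and the loader genes Rfc2, Rfc3, Rfc4 and Rfc5 had fold changes of -0.02 to 0.32. Leaving out vehicle replicate 1 gave the 9 genes a median of 0.53. Fold changes were then 0.47 for Pcna, 0.73 for Rpa2, against 0.45 with it, and 1.41 for Lig1. Fen1 was then at 0.75, against 0.27 with it, Rfc3 at 0.75, against 0.18, and Rfc5 at 0.53, against 0.32.

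All 5 nucleotide supply genes had positive fold changes, with a median of 0.29. Rrm2, the subunit of ribonucleotide reductase whose level follows S phase (ENSMUSG00000020649.11, chromosome 12, 24708241 to 24714146), had 88.6, 52.5 and 65.6 CPM in antagomir libraries, against 60.1, 24.4 and 34.6 CPM in vehicle libraries. Vehicle replicate 1 lay above the lowest antagomir library, so the groups overlapped by that pair. The means were 68.9 ± 18.3 CPM in antagomir libraries and 39.7 ± 18.4 CPM in vehicle libraries (SD, n = 3 each), a fold change of 0.80 ± 0.34 (SE; unadjusted p = 0.0474, edgeR adjusted p = 0.949). Its unadjusted p stayed under the threshold without antagomir replicate 2 or without vehicle replicate 1 and exceeded it without any of the other 4 libraries. Rrm1, the partner subunit of the same enzyme, had 114, 89.1 and 84.3 CPM in antagomir libraries, against 95.3, 64.0 and 83.0 CPM in vehicle libraries, a fold change of 0.24 ± 0.19. Tk1, the S-phase thymidine kinase, had 4.92, 10.8 and 5.04 CPM in antagomir libraries, against 8.32, 2.32 and 2.59 CPM in vehicle libraries. Each group thus had a single high library for Tk1, antagomir replicate 2 and vehicle replicate 1. Tyms, which makes thymidylate, and Dut, which removes dUTP, had fold changes of 0.19 and 0.29. That of Tyms was -0.12 without antagomir replicate 1. Without vehicle replicate 1 the median of the 5 genes was 0.50, with fold changes of 1.23 for Rrm2, 0.39 for Rrm1 and 1.495 for Tk1, which was 0.65 with it. That of Dut was then 0.50.

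The 5 genes of G1 to S control had the smallest median, 0.22, although all were positive. E2f1, an activating E2F factor (ENSMUSG00000027490.17, chromosome 2, 154559407 to 154569892), had 20.2, 16.9 and 18.6 CPM in antagomir libraries, against 20.6, 8.98 and 11.2 CPM in vehicle libraries. The fold change was 0.45 ± 0.34, and the vehicle group held both the highest and the lowest library. E2f2, its relative, was the gene with the lowest level per length, with 3.59, 3.14 and 5.84 CPM in antagomir libraries, against 7.87, 0.978 and 1.57 CPM in vehicle libraries. Ccne1 and Ccne2, the E cyclins that drive entry into S phase, differed from Mcm2 and Mcm6 in that vehicle replicates 2 and 3 were not both below all antagomir libraries. Ccne1 had 5.65, 2.94 and 2.66 CPM in antagomir libraries, against 5.23, 2.14 and 3.60 CPM in vehicle libraries, a fold change of 0.04 ± 0.56. Ccne2 had 9.24, 8.83 and 4.59 CPM in antagomir libraries, against 6.41, 6.35 and 6.70 CPM in vehicle libraries, a fold change of 0.22 ± 0.39 that was -0.10 on the log2(TPM + 0.5) scale with limma-trend. Cdk2, the kinase that both cyclins activate, had 20.6, 16.4 and 21.8 CPM in antagomir libraries, against 24.5, 14.5 and 16.2 CPM in vehicle libraries. The directions of Ccne1 and Cdk2 also turned when single libraries were left out. With all libraries, the fold changes of E2f2 and Cdk2 were 0.27 ± 0.80 and 0.09 ± 0.27 (SE). When vehicle replicate 1 was left out, the median of the 5 genes was 0.40. Fold changes were then 0.89 for E2f1, 1.71 for E2f2, 0.40 for Ccne1 and 0.36 for Cdk2.

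Chromatin assembly, histone mRNA and uracil repair were represented by 5 genes, all with positive fold changes and a median of 0.42. Uhrf1, which carries DNA methylation onto newly copied strands (ENSMUSG00000001228.14, chromosome 17, 56303321 to 56323486), had 69.9, 50.4 and 41.9 CPM in antagomir libraries, against 50.8, 30.2 and 31.5 CPM in vehicle libraries. Its fold change was 0.53 ± 0.28 (SE; unadjusted p = 0.0913, edgeR), and vehicle replicate 1 overlapped the antagomir range. Chaf1a, a subunit of the assembly factor that places histones behind the fork (ENSMUSG00000002835.9, chromosome 17, 56040439 to 56072289), had another order: 36.5, 63.7 and 60.9 CPM in antagomir libraries, against 42.4, 42.2 and 36.0 CPM in vehicle libraries. The vehicle libraries agreed closely for Chaf1a, and antagomir replicate 1 lay at their level. Its partner Chaf1b had 14.0, 8.89 and 3.74 CPM in antagomir libraries, against 13.9, 2.93 and 2.74 CPM in vehicle libraries, with vehicle replicates 2 and 3 below all antagomir libraries as in Mcm2 and Mcm6. Slbp, which binds the ends of histone mRNAs, had 65.7, 55.8 and 75.4 CPM in antagomir libraries, against 69.9, 50.3 and 38.5 CPM in vehicle libraries, a fold change of 0.31 ± 0.24. Ung, which removes uracil from DNA, had a fold change of 0.16 ± 0.38. Without vehicle replicate 1 the median of the 5 genes was 0.57, with fold changes of 0.82 for Uhrf1, 0.57 for Slbp and 1.65 for Chaf1b, which was 0.44 with it. That of Ung was then 0.28. Chaf1b had a fold change of -0.06 without antagomir replicate 1.

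Levels per length differed by more than an order of magnitude among the 49 genes. By mean TPM over the 6 libraries, Rfc2 came first at 122 TPM (100.1 to 145 TPM), then Rpa1 at 97.0 TPM (77.5 to 116 TPM), Pcna at 82.5 TPM (59.7 to 98.2 TPM) and Slbp at 74.0 TPM (45.6 to 94.4 TPM). The ranges of these neighbours overlapped. At the low end stood Ccne1 at 3.78 TPM, Pole at 3.52 TPM, Cdc6 at 3.30 TPM, Mcm10 at 3.26 TPM, Orc1 at 2.69 TPM and E2f2 at 2.12 TPM, and their ranges overlapped as well. A ratio of highest to lowest library, in CPM, was above 4 for 13 of the 49 (26.5%, against 18.1% of all genes tested) and below 1.5 for 6 (12.2%, against 25.3%). The 13 were Orc1, E2f2, Pole, Mcm2, Cdc45, Mcm10, Cdt1, Cdc6, Chaf1b, Lig1, Tk1, Mcm6 and Mcm3, and the 6 were Orc6, Mcm4, Gins4, Prim2, Rfc2 and Rpa1. The plot of level against range shows that the widest ranges were at low levels, where counting error is larger. The part of counting error in these ranges was not tested, and Mcm2 and Mcm6 also ranged widely at 16.5 and 23.9 TPM.

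**Figure D4:**
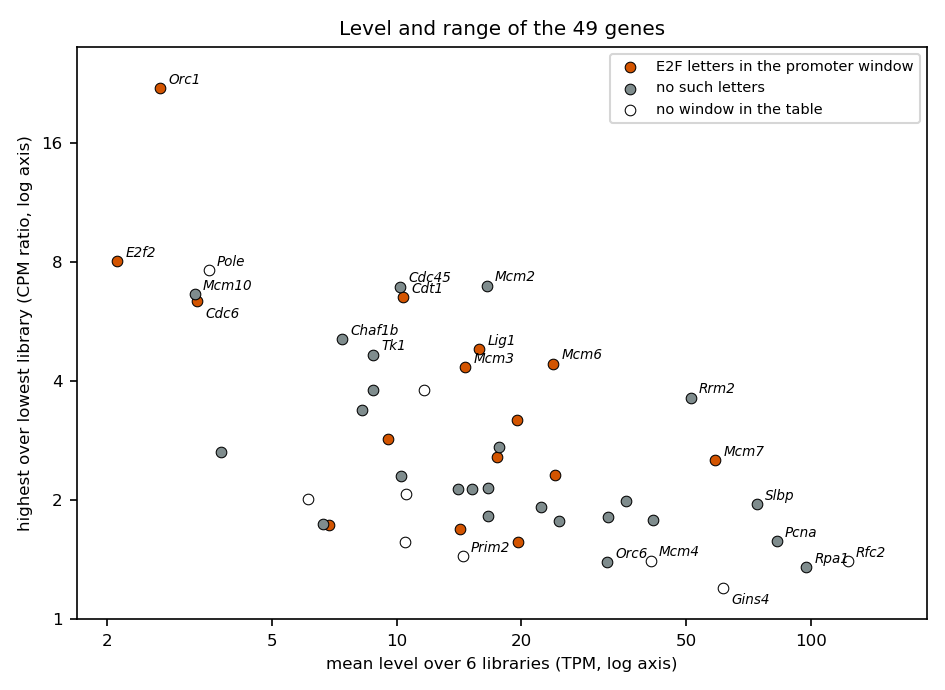
Mean level of each of the 49 genes over the 6 libraries in TPM (x, log axis) against the ratio of its highest to its lowest library in CPM (y, log axis); colours mark whether the RefSeq promoter window holds E2F letters. Orc1 lies alone at a ratio of 22.1, and the genes at the right, among them Rfc2, Rpa1 and Gins4, lie near the lower edge.

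The annotated transcripts behind these levels were mostly protein-coding. In 46 of the 49 genes the transcript with the highest mean TPM was protein-coding, and in 44 coding transcripts held over 50% of the gene's TPM. The exceptions in top transcript were Rfc2, Gins2 and Tyms. In Rfc2, a retained-intron transcript held 51.2% of the TPM and the coding transcript 6.96%. The coding transcript of Rfc2 was at 9.73, 8.55 and 10.3 TPM in antagomir libraries, against 7.98, 8.84 and 5.65 TPM in vehicle libraries. Its first place by level thus belongs to transcripts not annotated as coding. In Gins2 a retained-intron transcript held 47.5%, and in Tyms a transcript marked for nonsense-mediated decay held 34.7%. In Orc1 the coding transcript held 39.6% of the TPM, and in Tk1 45.9%.

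The library kit does not mark strand, and exons of 13 of the 49 genes overlap exons of a detected gene on the opposite strand, which makes their counts uncertain. Among these are Mcm7 with Cops6 and Ap4m1, Cdc45 with Ufd1, Orc6 with Vps35, Rfc4 with Eif4a2, Chaf1a with Ubxn6, Lig1 with Zswim9 and Tk1 with Afmid. The others are Ccne2, Cdk2, Fen1, Gins2, Rfc2 and Rfc5. Dbf4, Prim2, Rrm2, Orc1, Mcm2, Mcm6 and Pole had no such overlap with a detected gene.

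The promoters of these genes are shown because E2F factors are known to drive many of them. RefSeq (GRCm38.p6) gave a window of 300 bases, 250 before and 50 after the start, for 40 of the 49 genes. The letters TTTCCCGC, TTTGGCGC, TTTCGCGC or TTTGCCGC, common forms of the E2F site, were searched on both strands; TTTCGCGC and TTTGGCGC can overlap when they face each other. They were found in the windows of 15 of the 40 genes (37.5%), against 704 of all 27025 genes in the table (2.61%). The stretches below run 5′ to 3′ along each gene's own strand, with the matching letters in capitals, and are the upstream or start-proximal matches of 3 licensing genes with wide ranges and 3 genes with narrower ones.
Orc1, chr4:108579416-108579445, plus strand: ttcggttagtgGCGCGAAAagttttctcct
Cdt1, chr8:122568035-122568064, plus strand: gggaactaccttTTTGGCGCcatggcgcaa
Mcm6, chr1:128359797-128359826, minus strand: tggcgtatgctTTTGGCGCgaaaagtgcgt
Mcm7, chr5:138172030-138172059, minus strand: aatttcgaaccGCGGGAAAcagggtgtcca
Cdk2, chr10:128705173-128705202, minus strand: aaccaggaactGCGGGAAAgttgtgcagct
Pold1, chr7:44548766-44548795, minus strand: cacggcggcgtatcttgtgGCGGGAAAagc

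In Mcm6 the match lies 110 bases before the start and runs on into a match on the other strand; in Mcm7 it lies 165 and in Orc1 27 bases before the start. The 15 genes with E2F letters had a median ratio of highest to lowest library of 3.18 (1.56 to 22.1), against 2.14 (1.35 to 6.98) for the 25 with a window and no such letters. The ranges overlapped widely, and the median fold change was 0.31 in both sets. Mcm2, Rrm2, Dbf4 and Pcna had a window without these letters, which says only that these letters are not in it. A match is a description of the sequence and does not show that a factor bound there.

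The windows also set the replication genes beside the mitosis genes. TTTGAA, the letters of the CHR element known from G2 and M phase promoters, were found on either strand in 7 of the 40 replication genes (17.5%), against 22 of 29 mitosis genes with a window (75.9%) and 20.2% of all genes. CCAAT was found on either strand in 23 of the 40 (57.5%), against 24 of the 29 mitosis genes (82.8%) and 41.1% of all genes. E2F letters were in 2 of the 29 mitosis genes (6.90%).

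The sequence of the blocked microRNA is shown because the antagomir pairs with it, and direct targets of a microRNA usually carry a match to its seed. The seed, bases 2 to 8, is in capitals; RefSeq places the mature form at chr19:22750610-22750631 on the plus strand (GRCm38.p6).
miR-204-5p: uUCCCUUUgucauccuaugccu

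In the annotated 3′ UTR of the most abundant coding transcript, 4 of the 49 replication genes (8.16%) held a match to bases 2 to 8, against 1948 of 14330 genes tested that have a 3′ UTR (13.6%). The 3′ UTRs of the replication genes were shorter, with a median of 526 bases, against 887 bases for the genes tested. Gins3 held an 8mer, a match that is followed by an A, and E2f1, Rfc2 and Rfc5 held a 7mer without it. The sites are shown with the matching letters in capitals and the neighbouring bases in lower case.
Gins3: tgacccaacacAAAGGGAAagaggtatt
E2f1: tatttattgggAAAGGGAgagggagaca
Rfc2: gtgtcccttggAAAGGGAgttgcagata
Rfc5: tgtgtgctgtcAAAGGGAgaaactgact

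The fold changes of these 4 genes were -0.12 ± 0.35, 0.45 ± 0.34, 0.20 ± 0.17 and 0.32 ± 0.33 (SE) for Gins3, E2f1, Rfc2 and Rfc5. None exceeded its standard error by enough to pass the test, and the gene with the 8mer had the negative value. Dbf4, Orc1, Rrm2 and Prim2 held no 8mer or 7mer match in the transcript searched.

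Further genes of replication had a smaller median fold change. Of 53 such genes, all tested, 38 had positive fold changes with a median of 0.18 (0.34 without vehicle replicate 1). Of these 53, 2 had an unadjusted p under 0.05 with higher antagomir values, where 2.18% of all genes tested did, and none was called by edgeR. Their groups were separated with higher antagomir values for 6 of the 53, where 5.07% of all genes were, and with lower ones for 2, where 5.45% were. Ccna2, the cyclin of S and G2 phase, had 75.4, 52.5 and 60.9 CPM in antagomir libraries, against 46.8, 15.8 and 10.2 CPM in vehicle libraries, and the groups did not overlap. Its fold change was 1.38 ± 0.51 (SE; unadjusted p = 0.0266, edgeR adjusted p = 0.949). Hells, a chromatin remodeller of dividing cells, had 11.9, 11.5 and 6.86 CPM in antagomir libraries, against 6.63, 2.99 and 3.35 CPM in vehicle libraries. Rnaseh2b, a subunit of the nuclease that removes ribonucleotides from DNA, had 19.7, 19.7 and 17.6 CPM in antagomir libraries, against 13.3, 15.5 and 11.4 CPM in vehicle libraries. Both were separated between the groups. Orc2, an origin recognition subunit that is present throughout the cycle, went the other way, with 25.6, 29.6 and 28.5 CPM in antagomir libraries, against 43.8, 32.6 and 34.1 CPM in vehicle libraries (fold change -0.40 ± 0.19).

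Mitosis genes had a wider spread among libraries, again with vehicle replicates 2 and 3 lowest and vehicle replicate 1 among the antagomir libraries. Of 33, 32 had positive fold changes with a median of 0.98 (1.701 without vehicle replicate 1). With higher antagomir values, 12 had an unadjusted p under 0.05 (edgeR), where 2.18% of all genes tested did. The scores were 0.75, 0.42 and 0.60 in antagomir libraries, against 0.51, -1.003 and -1.30 in vehicle libraries. Aurkb, a kinase of chromosome segregation, had 25.9, 25.9 and 27.1 CPM in antagomir libraries, against 18.2, 8.80 and 6.09 CPM in vehicle libraries. Kif20a, a motor protein of cytokinesis, had 46.0, 35.8 and 56.9 CPM in antagomir libraries, against 30.9, 23.2 and 12.5 CPM in vehicle libraries. Both were separated between the groups, but neither passed adjustment (edgeR adjusted p = 0.949 for each). The G1 cyclins, kinases and inhibitors differed less between the groups than the replication genes: 9 of the 15 tested had positive fold changes, with a median of 0.11. Their scores were 0.21, -0.02 and -0.03 in antagomir libraries, against 0.18, -0.08 and -0.26 in vehicle libraries. Vehicle replicates 2 and 3 were thus lowest here too. Rbl2, a pocket protein of quiescent cells, had 162, 142 and 145 CPM in antagomir libraries, against 130.0, 120.2 and 117 CPM in vehicle libraries. Cdk6, a G1 kinase, had 7.54, 14.8 and 11.96 CPM in antagomir libraries, against 12.4, 18.0 and 21.4 CPM in vehicle libraries. Cdkn2a, the remaining gene of that list, had 6 estimated counts in vehicle replicate 1 and 0 in every other library and was not tested.

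In summed level, markers of activated stem cells and progenitors and of neuroblasts were also lowest in vehicle replicates 2 and 3. Summed levels of the 9 activated stem cell and progenitor markers were 1058, 546 and 598 CPM in antagomir libraries, against 831, 343 and 386 CPM in vehicle libraries. Mki67, the proliferation marker in that list, had 48.9, 50.4 and 43.1 CPM in antagomir libraries, against 80.2, 13.6 and 23.8 CPM in vehicle libraries. Vehicle replicate 1 was thus the highest library for Mki67. Of the 9, 6 had positive fold changes and 3 negative ones. Egfr, a growth factor receptor of activated stem cells, and Fabp7, a fatty acid carrier of radial glia, were separated in the lower direction, with fold changes of -0.50 ± 0.19 and -0.62 ± 0.24 (SE), neither of which passed adjustment. The 10 neuroblast markers summed to 2337, 1019.8 and 1005 CPM in antagomir libraries, against 1488, 613 and 660 CPM in vehicle libraries, and all 10 had positive fold changes, with a median of 1.047 (2.32 without vehicle replicate 1). Within each group replicate 1 was highest in neuroblast markers and in the replication score. Oligodendrocyte precursors also divide. Their 8 markers summed to 607, 808 and 945 CPM in antagomir libraries, against 451, 792 and 549 CPM in vehicle libraries. By sum this was another order, with vehicle replicate 1 lowest. Their scores were -0.04, 0.39 and 1.27 in antagomir libraries, against 0.09, -0.55 and -1.11 in vehicle libraries. By score, vehicle replicates 2 and 3 were lowest and vehicle replicate 1 lay among the antagomir libraries. Of the 7 precursor markers tested, 6 had positive fold changes, with a median of 0.83 (1.51 over the 8 tested without vehicle replicate 1). The 8 endothelial and mural markers summed to 89.7 to 145 CPM in antagomir libraries and 118 to 134 CPM in vehicle libraries, most of it Pdgfrb, at 78.1 to 135 CPM in antagomir libraries and 109 to 125 CPM in vehicle libraries. The endothelial marker Cdh5 was at 0 in all libraries but 1, Vtn was at 0 in every library, and so was Cd3e, a T cell marker. The part of neuroblasts and progenitors in the replication levels was not tested.

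**Figure D5:**
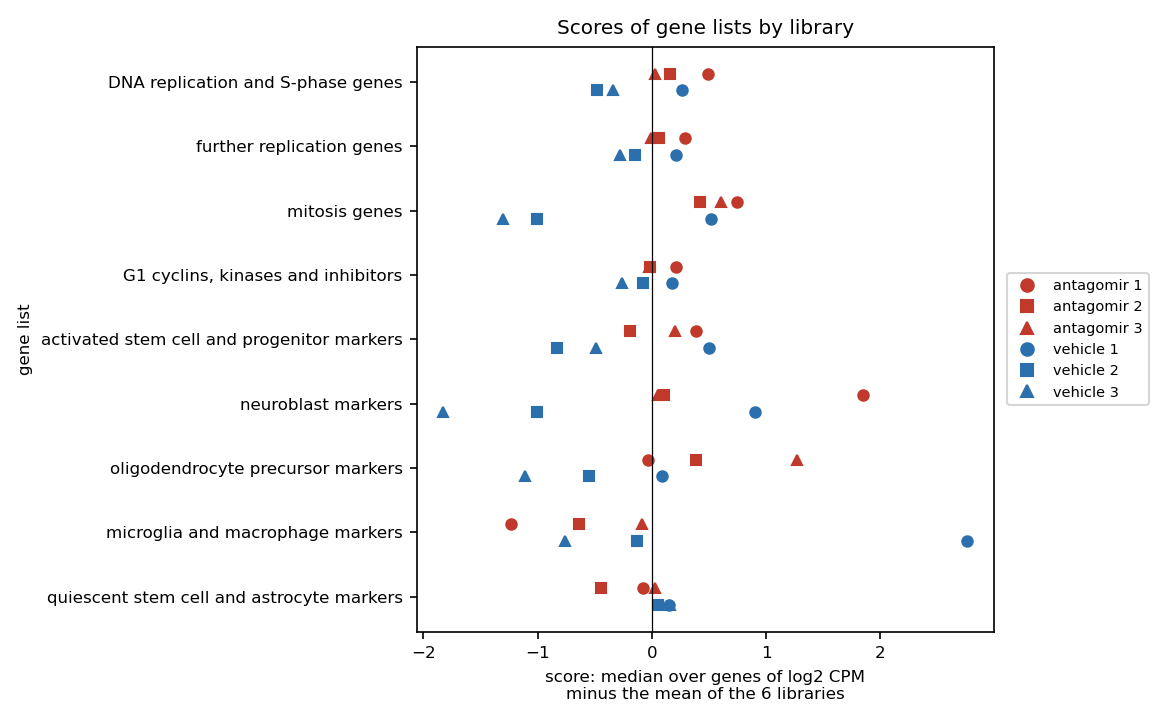
Score of 9 gene lists in each library, the median over a list's genes of log2 CPM centred on each gene's mean over all 6 libraries (x); antagomir libraries are drawn above vehicle libraries in each row and the symbol gives the replicate. Replication scores run from -0.48 to 0.49, mitosis scores from -1.30 to 0.75, and the microglia score of vehicle replicate 1 stands at 2.76.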

How the data were processed

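Per the labels' protocols, sorted cells went through PicoPure RNA isolation, SMART-Seq v4 cDNA synthesis and 100 bp paired-end sequencing on a HiSeq. Kallisto, sleuth and mm10 are named in the submitters' processing notes, versions of which are not given in the sources used here. Per transcript, the deposited files hold estimated counts (expected counts) that are not normalized, and the deposited TPM are scaled to effective length and library, per the file headers. Groups came from the sample titles, since the treatment protocol mentions only the antagomir.

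Of 99567 transcripts, 98294 (98.7%) matched GENCODE M21 by identifier. Unmatched ones held 0.524 to 0.586% of counts and were left out. Counts were summed over 32564 genes and rounded. Chi-square values per gene over the 15 library pairs were 23.5 to 98.4, so no pair agreed within sampling noise. The test was edgeR 4.0.16 in R 4.3.3 (TMM, filterByExpr with a minimum count of 10, robust quasi-likelihood, group as the only term, Benjamini-Hochberg over 15012 genes, threshold 0.05), checked on simulated data. The common biological coefficient of variation was 36.2%. Scores used log2 CPM with a prior count of 2. Standard errors are the fold change over the square root of F.

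Members and lists were chosen with earlier results of these data known. Named were, per role group, the 3 smallest p, plus Pcna, Mcm2, Mcm5, Ccne1, E2f1, Rrm2, Gmnn and Uhrf1, and, of other lists, the 4 (further replication) or 2 (mitosis, G1) smallest p. Alternatives were other scaling factors and filters, DESeq2 1.42.0, limma 3.58.1 (voom, and trend on log2(TPM + 0.5)), a replicate block and leaving out each library.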

Additional observations from a re-analysis of the deposited data

How the results depend on the processing

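No replication gene passed an adjusted p of 0.05 under any of the 14 alternative settings, and DESeq2 called 1 gene in all. Positive fold changes numbered 44 to 47 of the replication genes tested under other scalings, filters, tests and the replicate block, and 37 to 47 when 1 library was left out. The count at an unadjusted p under 0.05 was 3 and ran from 1 (without vehicle replicate 2) to 22 (without vehicle replicate 1), and the count of separated genes, 2, ran from 4 to 30. The median fold change was 0.29 to 0.40 under the other settings and 0.23 to 0.62 with 1 library left out, and the score difference was 0.42 with TPM, 0.48 with a mean over genes and 0.27 to 0.66 with 1 library left out. With fewer libraries separation is easier by construction, and the cause of the other shifts was not tested. The smallest adjusted p of the 25 named replication genes in any setting was 0.329 (edgeR), so none crossed the adjusted threshold. Of 349 comparisons of these genes with their reported fold change, 344 kept its sign. The 5 that turned were Ccne2 with limma-trend on TPM (-0.10), Cdk2 with 1 library left out (-0.052 without vehicle replicate 2, up to 0.36), Mcm5 (-0.13 without antagomir replicate 1, up to 0.89) and Ccne1 (-0.39 without antagomir replicate 1 and -0.23 without vehicle replicate 2, up to 0.40). Members outside the 25 are not in that count. Of them, Mcm3 (-0.12), Tyms (-0.12), Prim1 (-0.17), Pola2 (-0.04) and Chaf1b (-0.06) turned without antagomir replicate 1. Without vehicle replicate 2, E2f2 (-0.17) and Mcm3 (-0.21) turned, among others. With the replicate number as a block, 11 replication genes had an unadjusted p under 0.05, all with higher antagomir values, where 5.78% of all genes did so against 2.18% without the block, and the smallest adjusted p was 0.341 (edgeR). Deviations of same-numbered libraries correlated at 0.19, 0.075 and 0.028 across genes, and antagomir replicate 2 correlated best with vehicle replicate 3 (0.14), so the numbers were not taken to pair the samples. Depth limits the weakest genes most: Orc1 had as few as 5 counts in a library, and the stricter filter at a mean count of 50 left it out.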
